A study of Mus musculus with 6 samples.

Results

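Transcripts of 3 cytokines of the interleukin-10 family, Il10, Il22 and Il24, and of 2 genes of the Il10 locus on chromosome 1, Fcmr and Mapkapk2, were followed in T cells with and without the transcription factor IRF4. The members were all probes that the authors' deposited table pairs with one of these symbols, Fcmr being listed there under its older name Faim3. This gave 8 of 22749 probes, and 5 of 688 named genes. Expression was measured on 2-colour Agilent arrays in IRF4 -/- T cells (null, 3 samples) and in IRF4 +/- T cells (heterozygous, 3 samples) of the strain C57BL/6J, with no wild-type group. Naive CD4+ CD62L-high CD25-negative spleen cells of both genotypes had been kept for 42 h in a Th17 culture on anti-CD3-coated plates, with the cytokines IL-23, IL-6 and human TGF-beta, anti-CD28, and blocking antibodies against interferon gamma and IL-4. The sources used here name neither the deleted part of the gene nor the animals behind each sample. The spread between samples may therefore be technical.

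Cytokines of the interleukin-10 family signal through paired receptor chains, JAK kinases and STAT3. Interleukin 10 restrains inflammation and is made by several subsets of activated T cells. Interleukin 22 acts on epithelium, where it promotes barrier defence and repair, and interleukin 24 also acts mainly on epithelial cells. IRF4 is induced by antigen receptor signalling and binds DNA together with BATF and AP-1 proteins in T cells. Fcmr encodes the Fc receptor for IgM, best known from B cells. Mapkapk2 encodes MK2, the kinase downstream of p38 that stabilises many cytokine mRNAs.

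Values are log2 ratios of a sample to a common reference, a commercial RNA pool from 11 mouse tissues, so they give no order of level between genes. The authors listed a probe, and so gave it a symbol, only where null and heterozygous samples differed by over 2-fold with an unadjusted p-value under 0.05. Every member was therefore chosen on the contrast described here, and its values are a description that supports nothing further. Any other probe of a member that missed these limits would be unnamed here. Probe counts, likeness between probes and averages thus cover listed probes only, and the averages may overstate the change. Nearest to these limits, Fcmr had a p-value of 0.0439 and the weaker probe of Mapkapk2 a 2.29-fold change in the authors' deposited table. Array medians lay between -0.03 and 0.06. Arrays of 1 genotype correlated over all probes at 0.915 to 0.961 among null samples and at 0.952 to 0.964 among heterozygous samples. Against heterozygous arrays, null replicate 1 gave 0.882 to 0.891, null replicate 2 gave 0.927 to 0.929 and null replicate 3 gave 0.930 to 0.937. Null replicate 1 also had the most values of exactly 0, 5.28% of its probes, against 0.67% to 3.77% on the other arrays. What an exact 0 stands for is not known here. Irf4 itself lay between 0.62 and 0.73 in null cells and between 2.85 and 3.02 in heterozygous cells, 4.81-fold lower in null cells. The free-text description of heterozygous replicate 3 writes its genotype ambiguously, while its title and genotype label place it in this group and its Irf4 value was 2.93.

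All members were lower in null cells, and their groups did not overlap. Il22 fell 9.70-fold, Il10 fell 9.67-fold, Il24 fell 7.12-fold and Mapkapk2 fell 2.32-fold. Fcmr was 2.92-fold lower in null cells without passing the threshold. In a limma fit over 22621 genes and unnamed probes with a Benjamini-Hochberg adjusted p under 0.05 as the threshold, 4 of the 5 members passed as lower and 0 as higher. Of all features, 1.17% passed as lower and 2.44% passed in either direction. Groups without overlap, null lower, were found for 17.6% of all features and for 5 of 5 members. Nothing is read from these counts, since the choice of members fixed them.

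Il10 gave log2 ratios of -0.29, -0.33 and -0.45 in null cells, replicates 1 to 3, against 3.20, 2.22 and 3.32 in heterozygous cells. The null samples lay close together and just below the reference pool, while heterozygous replicate 2 lay well below the other two. The means were -0.36 ± 0.08 in null cells and 2.92 ± 0.60 in heterozygous cells (SD, n = 3 each). The decrease was 9.67-fold, or -3.27 on the log2 scale (SE 0.30). The lowest heterozygous value stood 2.52 above the highest null value. Il10 lost the limma call without null replicate 2, heterozygous replicate 1 or heterozygous replicate 3. In those fits 30, 80 and 46 of all features passed. Every fit with 1 sample left out passed fewer features than the full fit, where 551 passed.

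Il22 was read by 2 listed probes. Probe A_51_P232628 gave log2 ratios of 3.30, 4.60 and 3.85 in null cells, against 7.32, 7.14 and 7.52 in heterozygous cells. Probe A_52_P177054 gave 5.59, 6.55 and 6.77 in null cells, against 9.51, 9.91 and 8.93 in heterozygous cells. Both probes stayed above the reference pool in every sample of both groups, so the transcript was reduced in null cells and still exceeded the pool. The fall was 10.6-fold by the first probe and 8.86-fold by the second. The probes ranked the heterozygous samples in opposite order, with replicate 2 lowest on the first and highest on the second. Averaged over both probes, Il22 was 5.11 ± 0.59 in null cells and 8.39 ± 0.15 in heterozygous cells (SD, n = 3 each), and the log2 fold change was -3.28 (SE 0.30). Its limma call was lost without heterozygous replicate 1 or heterozygous replicate 3. Iltifb is a close copy of Il22 and the next protein-coding gene after it, and probe sequences were not used here, so the signal cannot be assigned to 1 of these copies.

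Il24 was also read by 2 listed probes, which gave falls of different size. Probe A_52_P87757 gave -0.53, 0.10 and 0.25 in null cells, against 4.19, 2.72 and 3.89 in heterozygous cells, a 12.7-fold decrease. Probe A_51_P401517 gave 0.35, 0.71 and 0.99 in null cells, against 3.08, 1.98 and 3.01 in heterozygous cells, a 4.01-fold decrease. The first probe read lower than the second by 0.61 to 0.88 in the null samples and higher by 0.74 to 1.12 in the heterozygous samples, so the decreases differed 3.16-fold. Both probes placed heterozygous replicate 2 lowest in its group and null replicate 3 highest, so they ordered these samples alike while differing in scale. Their average was 0.31 ± 0.36 in null cells and 3.14 ± 0.70 in heterozygous cells (SD, n = 3 each), and the log2 fold change was -2.83 (SE 0.38). With 1 sample left out, Il24 passed only in the fit without heterozygous replicate 2.

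Fcmr had the widest spread among the null samples of the members. Its log2 ratios were 2.48, 2.68 and 4.08 in null cells, against 4.55, 4.37 and 4.95 in heterozygous cells. Null replicate 3 lay 0.29 below the lowest heterozygous sample, while the other null samples were well apart from that group. The means were 3.08 ± 0.87 in null cells and 4.62 ± 0.30 in heterozygous cells (SD, n = 3 each). The log2 fold change of -1.54 (SE 0.44) did not pass the threshold. With 1 sample left out, Fcmr passed in 1 of 6 fits, the one without null replicate 3, with a log2 fold change of -2.04. Of 7 fixed B cell markers 2 had a named probe. Cd24a, a surface protein of several immature and activated blood cells, was -2.46, -2.43 and -2.25 in null cells and 0.19, -0.36 and 0.20 in heterozygous cells, and Sdc1, a plasma cell marker, was -1.67, -1.82 and -1.94 in null cells and -2.88, -3.39 and -3.34 in heterozygous cells. One was lower and the other higher in null cells, and no probe was named here for Ms4a1, Cd79a, Cd79b or Pax5. The part of other cell types in the Fcmr result was not tested. In these bulk samples fewer cells of a type and less RNA per cell cannot be told apart.

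Mapkapk2 changed least of the members and, among members with 2 listed probes, its fold change differed least between them. Probe A_51_P118902 gave 0.06, 0.29 and 0.62 in null cells, against 1.67, 1.42 and 1.57 in heterozygous cells. Probe A_52_P15008 gave -0.27, -0.12 and -0.02 in null cells, against 1.11, 0.93 and 1.12 in heterozygous cells. The null samples lay near the reference pool and the heterozygous samples above it on both probes. The decreases were 2.34-fold and 2.29-fold. Averaged, Mapkapk2 was 0.09 ± 0.20 in null cells and 1.30 ± 0.11 in heterozygous cells (SD, n = 3 each), and the log2 fold change was -1.21 (SE 0.15). With 1 sample left out, it passed only in the fit without null replicate 3. Of 14 fixed genes of the p38 and MK2 pathway, Mapkapk2 alone had a named probe, so the kinases above it and its substrates are not known here.

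**Figure D1:**
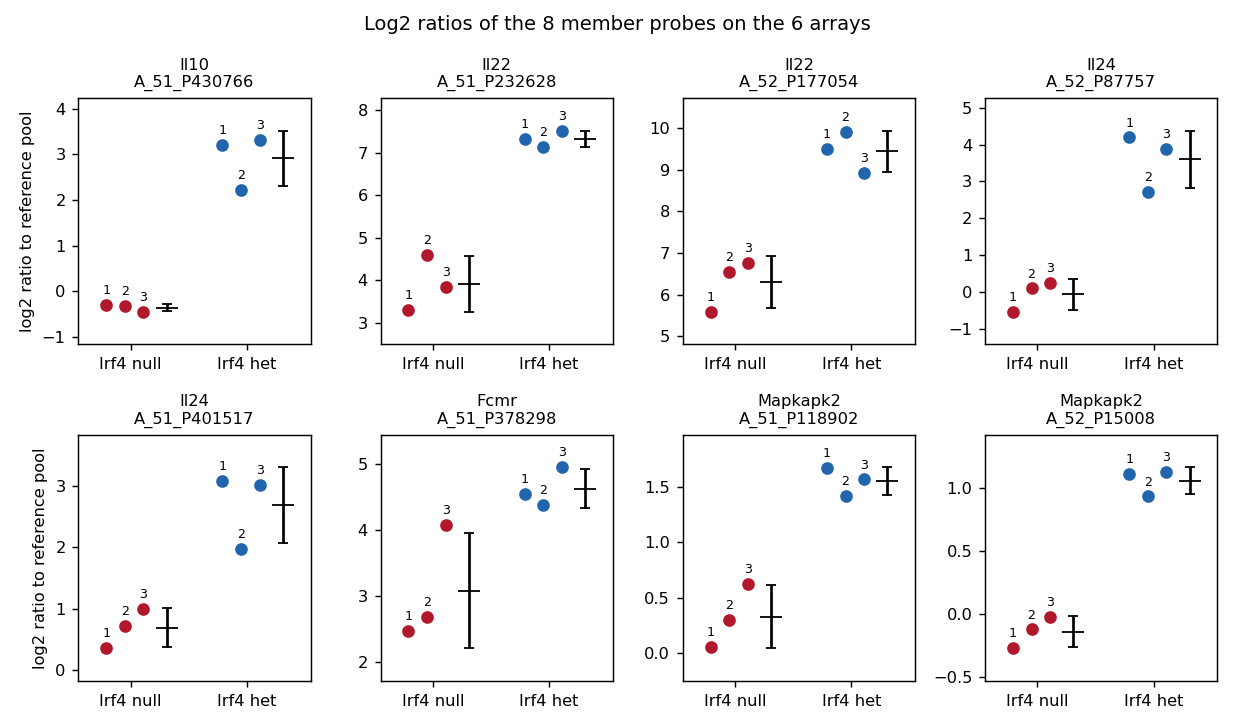
Log2 ratio to the reference pool (vertical axis, each panel with its own scale) for the 8 member probes, with Irf4 null samples in red on the left and heterozygous samples in blue on the right, numbered by replicate; bars give the mean and SD (n = 3). Groups are separate in every panel, by 0.29 for Fcmr and by 2.52 for Il10.

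Most member probes also shared which samples were low or high within a genotype. Null replicate 1 was the lowest null sample on 7 of the 8 probes, the exception being Il10, and null replicate 3 was the highest on 6. Heterozygous replicate 2 was the lowest of its group on 7 of the 8, the exception being Il22 probe A_52_P177054. Averaged over both probes, Il22 was highest in heterozygous replicate 2, with 8.41, 8.52 and 8.23 in replicates 1 to 3. On the 427 probes that the authors' deposited table gives as lower in null cells, null replicate 1 was lowest of its group on 56.2%, null replicate 3 was highest on 54.1%, and heterozygous replicate 2 was lowest on 49.9%. Over all 22749 probes the same shares were 44.2%, 42.5% and 34.9%. The order seen on the member probes was thus frequent among listed lower probes too, and probes on 1 array are not independent. In heterozygous replicate 2 the deviation from the group mean was -0.69 for Il10 and -0.89 and -0.71 for the Il24 probes, against -0.13 and -0.12 for the Mapkapk2 probes. The median SD over the 8 probes was 0.366 in null cells and 0.395 in heterozygous cells. Over the 427 listed lower probes it was 0.311 in null cells and 0.313 in heterozygous cells, and over all probes it was 0.259 in null cells and 0.189 in heterozygous cells.

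**Figure D2:**
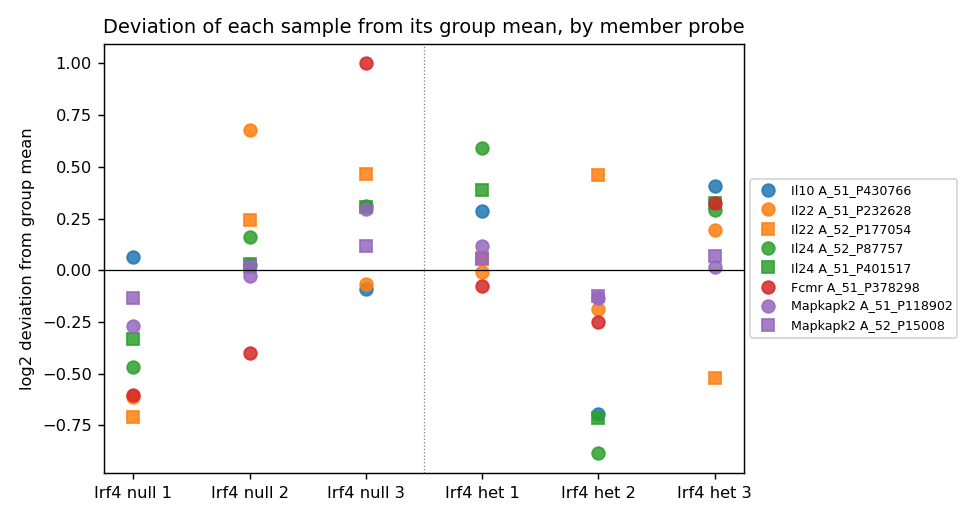
Deviation of each sample from the mean of its own group (vertical axis, log2) for the 8 member probes, with null samples left of the dotted line and heterozygous samples right of it; colours mark genes, and circles and squares mark the probes of a gene. Fcmr stands 1.0 above the mean in null replicate 3, and Il10 and both Il24 probes lie at -0.69 to -0.89 in heterozygous replicate 2.

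In the RefSeq order of protein-coding genes on chromosome 1 (GRCm38.p6), the stretch from Fcamr to Ikbke holds 12 genes, and 4 of them had a named probe. Fcmr and Il24 are next to each other, as are Il10 and Mapkapk2, and the cytokine genes Il20 and Il19 lie between these pairs. Among these 4 genes, the largest decreases were those of the cytokine genes Il10 and Il24, and the outer members Fcmr and Mapkapk2 had smaller ones. No probe was named here for Il19 or Il20, for the immunoglobulin receptor genes Fcamr and Pigr, or for Dyrk3, Eif2d, Rassf5 and Ikbke. Such a gene may lack a probe or may have changed by less than the authors' limits, so it is not known whether the decrease runs through the whole stretch. Across the genome, 43 pairs of adjacent protein-coding genes both had a named probe. In 36 of them both genes changed in the same direction, and in 18 both were lower in null cells, the pairs named above included. Of all 688 named genes, 361 were lower in null cells. Whether neighbours change together more often than other listed genes was not tested. Il22 lies on chromosome 10 between Mdm1 and Iltifb, with Ifng beyond, and it was the only one of these 4 genes with a named probe.

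**Figure D3:**
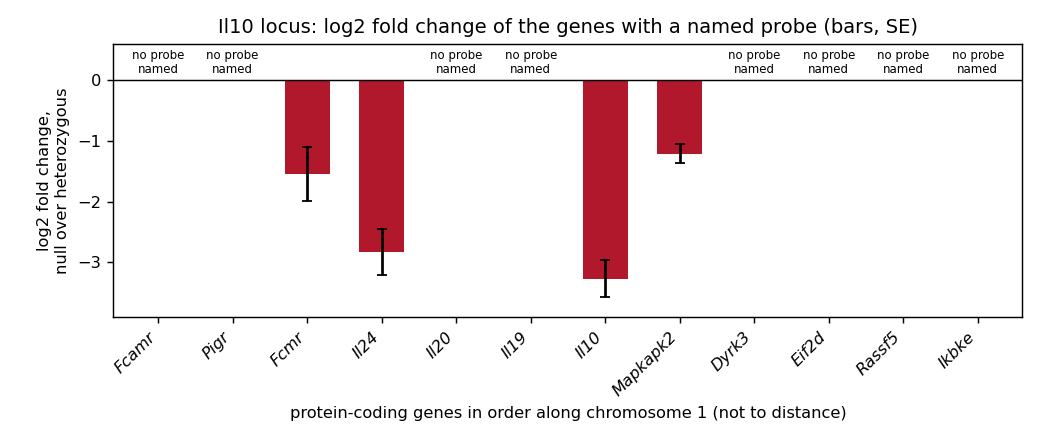
Log2 fold change of null over heterozygous cells (vertical axis; bars with SE from the limma fit) for the 12 protein-coding genes from Fcamr to Ikbke in their order on chromosome 1, not drawn to distance. Il10 shows -3.27 and Il24 -2.83, Fcmr and Mapkapk2 show -1.54 and -1.21, and the other genes had no probe named here.

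Promoter windows are shown because IRF proteins contact the letters GAAA. RefSeq windows of 300 bases (GRCm38.p6, 250 before to 50 after an annotated start) were held for 3 of the 5 members and are printed 5′ to 3′ on the gene's strand, with GAAA or its reverse complement TTTC in capitals. The Fcmr window is chr1:130865527-130865826 on the plus strand, the Mapkapk2 window is chr1:131097794-131098093 on the minus strand, and the Il22 window is chr10:118204714-118205013 on the plus strand. The start used for Il22 lies 380 bases inside the annotated span of the gene, so another annotated start is further upstream.
Fcmr: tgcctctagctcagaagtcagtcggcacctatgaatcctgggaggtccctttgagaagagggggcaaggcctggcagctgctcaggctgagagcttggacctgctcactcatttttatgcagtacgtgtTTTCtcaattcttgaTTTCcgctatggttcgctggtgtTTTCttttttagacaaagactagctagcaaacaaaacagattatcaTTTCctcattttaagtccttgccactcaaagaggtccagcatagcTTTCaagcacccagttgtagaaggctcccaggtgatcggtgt
Mapkapk2: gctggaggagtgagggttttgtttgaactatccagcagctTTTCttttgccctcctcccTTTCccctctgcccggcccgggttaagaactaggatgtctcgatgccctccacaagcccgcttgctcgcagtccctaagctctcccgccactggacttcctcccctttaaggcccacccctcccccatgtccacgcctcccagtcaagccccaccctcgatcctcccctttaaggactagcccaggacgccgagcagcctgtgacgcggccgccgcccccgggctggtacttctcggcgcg
Il22: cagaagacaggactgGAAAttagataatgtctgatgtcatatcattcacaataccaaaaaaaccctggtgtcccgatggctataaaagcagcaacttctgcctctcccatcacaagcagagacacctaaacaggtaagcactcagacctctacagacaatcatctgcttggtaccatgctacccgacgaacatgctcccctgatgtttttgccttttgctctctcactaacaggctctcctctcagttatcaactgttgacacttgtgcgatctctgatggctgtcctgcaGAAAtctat
The capitals mark 5 matches in the Fcmr window, 2 in the Mapkapk2 window and 2 in the Il22 window, and 89.2% of 32851 such windows in the genome hold at least 1. Longer elements were searched on both strands, where N stands for any base: GAAA with 2 bases before another GAAA (the core of the interferon-stimulated response element), GGAA with 2 bases before GAAA (the ETS-IRF element), TGANTCA with 4 bases before GAAA, GAAA directly before TGANTCA (AP-1-IRF elements), and TGANTCA alone (the AP-1 site). All but the last contain GAAA, and both AP-1-IRF elements contain the AP-1 site. Each of them had 0 matches in these 3 windows. They were present in 3.44%, 2.72%, 0.119%, 0.125% and 7.81% of all windows, in that order. This says only that the letters are not in these windows.

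Among genes tied to the family by function, few had a named probe, and all of those had been selected by the authors on the same contrast. None of the 7 receptor genes or of the 9 JAK-STAT genes of the list had one. Of 29 factors and receptors known to act on Il10 or Il22 in T cells, 10 had a named probe. Of these, 6 fell, Irf4 itself included, 1 rose, and 3 were lower without passing. The median log2 fold change of the 10, with Irf4 among them, was -1.98. The median was -1.30 over all 361 named genes lower in null cells and -0.05 over all features, and 357 of 688 named genes passed. Nothing is read from the list's median or counts, since its named genes were selected for size. Il12rb1, which encodes a chain of the receptors for IL-12 and IL-23, was 1.88, 2.14 and 2.13 in null cells and 4.21, 3.81 and 4.14 in heterozygous cells. Runx3, a transcription factor known for its role in CD8 T cells, was -0.57, -0.73 and -0.86 in null cells and 1.78, 1.08 and 1.38 in heterozygous cells. Ebi3, a subunit shared by IL-27 and IL-35, was -0.55, -0.56 and -0.41 in null cells and 1.31, 1.38 and 2.05 in heterozygous cells. These 3 genes and Irf4 had the largest decreases among the members of the list that passed, and in each the groups were separate. Il23r, the specific chain of the IL-23 receptor whose ligand was in the culture and promotes Il22 expression, was 2.53, 2.85 and 3.66 in null cells and 5.03, 3.77 and 5.0 in heterozygous cells, and did not pass. Il21 was 5.94, 5.91 and 8.03 in null cells and 9.88, 9.56 and 9.42 in heterozygous cells. Its log2 fold change of -2.99 was larger in size than those of the list's genes that passed, but it did not pass itself. Null replicate 3 was the highest null sample for both of these genes, as it was for Fcmr. The 1 gene of the list that rose was Gata3, named after its value was seen, with -0.75, -0.75 and -0.81 in null cells and -2.22, -2.10 and -2.52 in heterozygous cells.

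Of the 7 IgM, polymeric immunoglobulin and Fc receptor-like genes, Fcrl1 and Fcmr had a named probe. Fcrl1, an Fc receptor-like gene known from B cells, was -0.25, -0.76 and -0.79 in null cells and 3.52, 2.78 and 3.32 in heterozygous cells, a 14.0-fold decrease that passed. Its null samples lay below the reference pool, whereas those of Fcmr lay above it. The labelled cell type could be checked only in part. Of 7 T cell markers only Cd28 had a named probe, and of 7 Th17 markers Ccr6, Il23r and Il22 had one, with none named for Il17a, Il17f, Rora, Cd3e or Cd4. All 4 were lower in null cells, Il22 past the threshold and the others not. Cd28 was 0, 0.32 and 0 in null cells and 0.78, 1.07 and 2.16 in heterozygous cells. Of its null values 2 were exactly 0, and these may not be measured ratios. Ccr6 was 1.24, 2.77 and 3.90 in null cells and 4.96, 4.93 and 5.37 in heterozygous cells. Cd8a, the 1 named gene of 2 CD8 T cell markers, was 4.71, 4.28 and 4.75 in null cells and 3.34, 4.0 and 2.53 in heterozygous cells, with no overlap and without passing. In the other marker lists, 3 of 7 myeloid and dendritic cell genes had a named probe (1 rose, 1 fell, 1 did not pass), 1 of 5 NK and innate lymphoid genes (Klre1, which fell) and 1 of 4 platelet and erythroid genes (Hemgn, which fell). Their part in the members' values was not tested. Klre1 and Hemgn each had 1 value of exactly 0, in null cells.

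The sample patterns of the members were set against those of the other 683 named genes by Pearson r over the 6 samples, as a description. These values largely follow the difference between genotypes that all listed genes share, and r was at least 0.95 for 120 genes with Il10, 115 with Il22, 102 with Il24, 20 with Fcmr and 136 with Mapkapk2. Closest to Il22 was Il9 (r = 0.999), the gene of another T cell cytokine, with 3.71, 5.30 and 4.87 in null cells and 9.22, 9.13 and 9.10 in heterozygous cells, followed by Ankrd13d and Tent5c (0.994 and 0.993). Closest to Il10 were Fndc3c1, listed at exactly 0 in all null samples, Arhgap24 and Tnfaip3, the gene of the NF-kappaB inhibitor A20 (0.999, 0.997 and 0.996). The r of Fndc3c1 thus rests partly on these zeros, which may not be measured ratios. Closest to Il24 were Furin, a proprotein convertase, Nol4l and Cox7a1 (0.994, 0.993 and 0.992). Closest to Mapkapk2 were Prps1, an enzyme of nucleotide synthesis, Stx11 and Hemk1 (0.998, 0.997 and 0.996). Genes most like Fcmr included Dyrk4 and Dst (0.988 and 0.974), and both of these also had null replicate 3 as its highest null sample, as with Dyrk4 at -2.07, -1.89 and -0.41 in null cells and 0.64, -0.01 and 1.10 in heterozygous cells.

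By size of decrease, Il22 and Il10 stood at ranks 18 and 19 of the 361 named genes that were lower in null cells, Il24 at rank 32, Fcmr at rank 130 and Mapkapk2 at rank 227. The median log2 fold change was -2.83 over the 5 members and -1.30 over those 361 genes. The cytokine genes thus lay in the upper part of the authors' list by size, and the locus neighbours in its middle part.

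**Figure D4:**
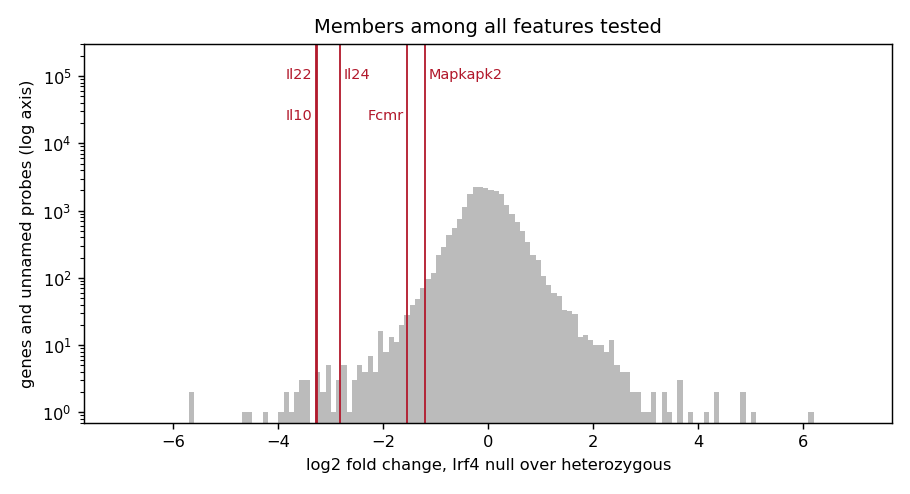
Number of genes and unnamed probes (vertical axis, logarithmic) by log2 fold change of null over heterozygous cells (horizontal axis, bins of 0.1), for all 22621 features tested. Red lines mark the 5 members, from -3.28 for Il22 and -3.27 for Il10 to -1.21 for Mapkapk2.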

How the data were processed

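RNA of 6 samples was labelled with Cy5 and hybridised with a Cy3-labelled reference pool, per the labels' protocols, with no dye swap. The submitters' processing notes name Agilent Feature Extraction 10.7 and Partek. The deposited values are log2 ratios that the authors call normalized. Base and direction were settled from the values: group differences matched the log2 of the authors' fold changes within 1.03e-05. Per the file headers, the p-value and signed fold change of each listed probe came from a 1-way ANOVA in Partek Genomic Suite 6.6.

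Of 828 listed probes 816 had a symbol, updated through RefSeq synonyms (GRCm38.p6), which left 688 named genes. The other 21933 probes are unnamed here. Listed probes of a gene were averaged, giving 22621 features. Groups came from sample titles. Genotypes were compared with limma 3.58.1 in R 4.3.3, without covariates, with Benjamini-Hochberg adjustment, and the step was tested on simulated data. Intensities, slides and scan dates were not used, so neither dim probes nor batches could be examined, and the number of arrays limits precision.

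Members and gene lists were chosen with earlier results of these data known. Named by rule were the members, Irf4, up to 4 passing and 2 other genes of each list, and the 3 genes most like each member. Calls of the members are counts from the fit over all features, with no test of the members' own, and no list test was run. Alternatives left out each sample, added the replicate number as a block, centred or quantile-normalized arrays, treated zeros as missing, tested single probes, used the methods' test, robust variances, an adjusted p under 0.1, or left out variable features. Some items are not reported here.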

Additional observations from a re-analysis of the deposited data

How the results depend on the processing

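Centring and quantile normalization moved each member's log2 fold change by less than 1 SD between replicates, and the single Il24 probes, at -2.0 and -3.66, moved further. Adding the block or treating zeros as missing leaves these values unchanged by construction, and so says nothing about their stability. With 1 sample left out they ran from -3.62 to -3.07 for Il10, -3.51 to -2.95 for Il22 and -3.23 to -2.59 for Il24. For Fcmr the range was -2.04 to -1.24, and for Mapkapk2 -1.32 to -1.11. A shift under 1 SD is fixed by construction when 1 of 3 samples is left out, so that limit was not informative there. Of all features, 551 passed in the limma fit, and 30 to 239 passed with 1 sample left out, 1296 at an adjusted p under 0.1, and 0 without the most variable 25% of features (3926 at an unadjusted p under 0.05). That filter uses the spread over all arrays and so removes features that differ between genotypes, all 5 members included. The members past the threshold numbered 4 and became 0 to 4 with 1 sample left out. They were 0 without heterozygous replicate 1 or 3, where 80 and 46 of all features passed. Without null replicate 2 the count was 1 (30 of all features), and without null replicate 1 it was 2 (184). It was 3 without heterozygous replicate 2 (186), and 4 without null replicate 3 (239), where Fcmr replaced Il24. Each fit with 1 sample left out thus passed fewer features than the 551 of the full fit. With the methods' test 3 members passed, and Il24 did not. In each of these fits all 5 had an unadjusted p under 0.05. The methods' test gave 4807 features at an unadjusted p under 0.05 and 777 after adjustment. The split of 286 higher and 265 lower features became 293 and 190 with centring and 264 and 188 with quantile normalization. With the replicate block, 13 features passed and 0 members did, all 5 with an unadjusted limma p under 0.05. The check of pairing by replicate number gave correlations of 0.097, -0.013 and -0.037 between deviations, none over 0.1. The causes of the other shifts were not tested.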
